A study of Mus musculus with 6 samples.

Results

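The suppressors of cytokine signalling (SOCS) and their founding relative Cish were followed through the transcriptome of M2 macrophages (Mφs). The 8 genes, Cish and Socs1 to Socs7, were taken by symbol from a table of 41549 genes, and all 8 had reads enough to be tested. The Mφs were grown from the bone marrow of wild-type C57Bl/6N mice aged 10 to 12 weeks, differentiated for 7 days with macrophage colony-stimulating factor. They were transfected before polarization with 50 pmol of an antisense oligonucleotide against a fragment of the glutamate tRNA with anticodon CTC, 5′tRF-Glu(CTC), or of a control antisense. Over the next 48 h both groups were exposed to IL-4 plus IL-13, at 10 ng/ml, and they are named αGlu and Ctr with 3 libraries each. No untreated or unpolarized cells were analysed here, so every value is that of an M2-polarized, transfected culture.

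The proteins of this family end a cytokine signal that has already been received. When a cytokine receptor activates its Janus kinases (JAK), STAT factors move to the nucleus and switch on Cish, Socs1, Socs2 and Socs3, whose products then bind the receptor or the kinase through an SH2 domain. A C-terminal SOCS box joins them to elongins and a cullin, which makes them the substrate-binding part of a ubiquitin ligase. In Mφs, Socs1 is best known for restraining interferon and IL-4 signals and Socs3 for restraining signals through the IL-6 receptor chain gp130.

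The agent that distinguishes the groups is short, so it is printed here with the stretch of the tRNA fragment it pairs with. Both were copied from the oligonucleotide list of the study and are written as DNA letters, with paired bases in capitals.
antisense oligonucleotide: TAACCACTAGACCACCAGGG
targeted stretch: tCCCTGGTGGTCTAGTGGTTA
The 20 bases of the oligonucleotide are the reverse complement of bases 2 to 21 of the targeted stretch, counted from its 5′ end. The fragment itself is not captured by these mRNA libraries.

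Total exon counts ranged from 17912831 to 30386653 per library. The library αGlu 1 stood apart from the other αGlu libraries. Across the 11933 genes tested, its log2 CPM (counts scaled to a common library size) correlated with those of αGlu 2 and αGlu 3 at a Pearson r of 0.929, and with Ctr libraries at 0.966 to 0.982, whereas αGlu 2 and αGlu 3 correlated at 0.992. Genes, over which these correlations run, are not independent replicates. Results are therefore given with and without αGlu 1. That library was singled out from these same values, and leaving it out keeps only αGlu 2 and αGlu 3, which lie close together. Standard errors and p-values without αGlu 1 thus overstate the evidence and are given as description. All 10 Mφ markers were expressed, with a summed level of 12979 to 14688 CPM in Ctr and 13852 to 21839 CPM in αGlu. Of 10 neutrophil markers, Ly6g and Retnlg had 0 reads, and the list summed to 107 to 159.8 CPM in Ctr and 186 to 609 CPM in αGlu. Without Csf3r it summed to no more than 6.44 CPM in any library. Lists of dendritic cell, fibroblast, lymphocyte and mast cell or basophil markers summed to at most 2.37, 7.18, 0.283 and 5.22 CPM. Labels gave no sequencing date or batch.

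Among the 8 genes, Socs3 and Socs1 had the highest αGlu means relative to Ctr, but Socs3 lay inside the Ctr range in αGlu 1. Cish and Socs2 lay above all Ctr libraries in αGlu 2 and αGlu 3 and below them in αGlu 1. Socs6 was lower, and Socs4, Socs5 and Socs7 lay close to their Ctr levels. With edgeR's quasi-likelihood test on all 6 libraries, 0 of 8 members had an adjusted p under 0.1 with a log2 fold change beyond 1 in either direction, and the same held for 0.0% of the 11933 genes tested. At an unadjusted p under 0.05 there were 3 members (Socs1, Socs3 and Socs6), against 24.7% of all genes. Limma-voom called 0 members too (0.0% of all genes), with Socs1 and Socs6 at an unadjusted p under 0.05, against 26% (3101) of all genes. DESeq2 called Socs1 and Socs3, both higher in αGlu, against 8.13% of the genes it gave an adjusted p in either direction and 4.21% in this one. With the replicate number as a block 0 members were called, against 0.142% of all genes. Without αGlu 1, the quasi-likelihood test called 5 members, against 18.6% of 12340 genes. Of these 5, Cish, Socs1, Socs2 and Socs3 were higher in αGlu, a direction that held 8.05% of all genes, and Socs6 was lower, as were 10.5% of all genes.

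**Figure D1:**
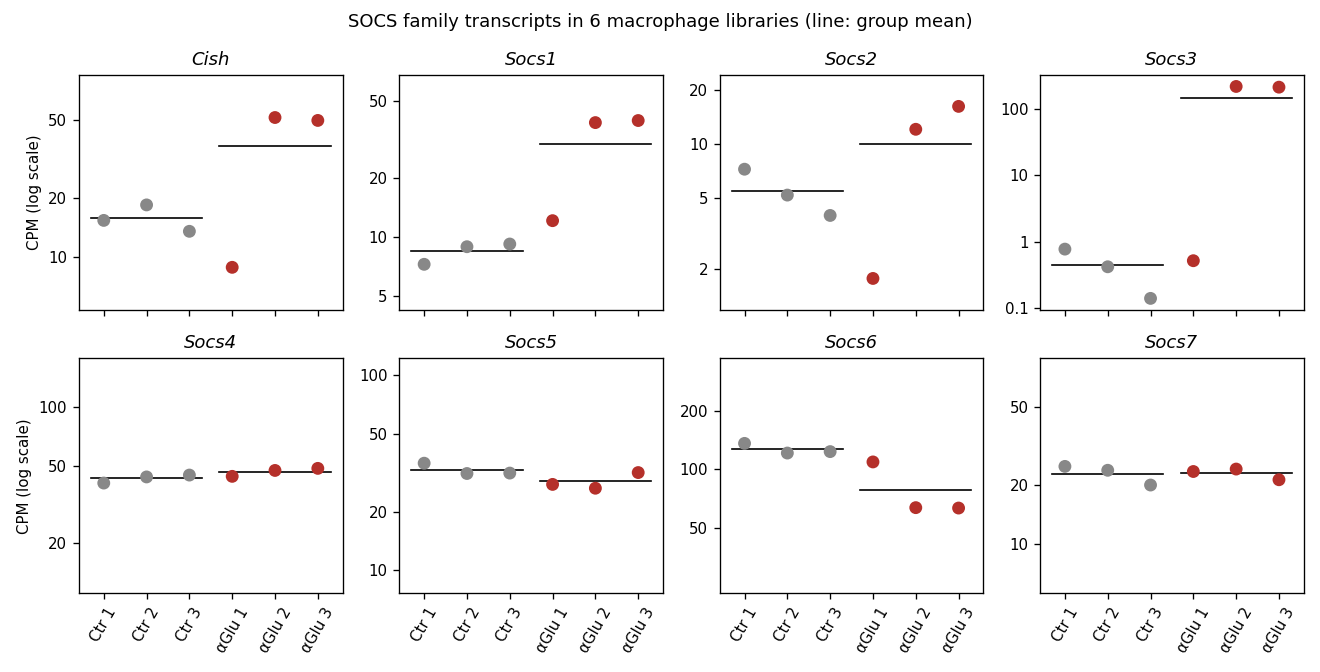
Expression of each of the 8 genes, as CPM on a log scale with its own range per panel, in the 3 Ctr (grey) and 3 αGlu (red) libraries, with a line at each group mean. Socs3 lies between 0.139 and 0.772 CPM in 4 libraries and at 221 and 216 CPM in αGlu 2 and αGlu 3, while for Cish and Socs2 αGlu 1 is the lowest of the 6 libraries.

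Socs3 gave the largest difference of the family. This JAK inhibitor (ENSMUSG00000053113, GRCm38 chr11:117966079-117970047, minus strand) was at 0.772, 0.418 and 0.139 CPM in Ctr 1, 2 and 3, from 17, 10 and 3 reads. It was at 0.516 CPM in αGlu 1, from 9 reads, and at 221 and 216 CPM in αGlu 2 and αGlu 3, from 7028 and 5884 reads. αGlu 1 thus lay inside the Ctr range, and its exact 95% Poisson interval of 4.12 to 17.1 reads, which covers counting error only, overlapped those of all Ctr libraries. αGlu 2 stood 499-fold and αGlu 3 487-fold above the Ctr mean of 0.443 ± 0.317 CPM (SD, n = 3). The log2 fold change over all 6 libraries was 8.34 ± 2.10 (SE, edgeR quasi-likelihood adjusted p 0.156), the fifth highest among 11933 genes. Without αGlu 1 it was 8.92 ± 0.32 at an adjusted p of 1.97e-05, and over 12 alternatives the adjusted p ranged from 1.97e-05 to 0.611. Only 7 genes, or 0.0587% of those tested, shared a property chosen after its values were seen, namely that αGlu 2 and αGlu 3 both exceeded each of the other 4 libraries by over 100 times.

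Socs1, the other member with a kinase inhibitory region, differed less in size but in every library. It (ENSMUSG00000038037, GRCm38 chr16:10782240-10785536, minus strand) was at 7.27, 8.94 and 9.23 CPM in Ctr 1, 2 and 3, whereas αGlu 1, 2 and 3 held 12.2, 38.6 and 39.6 CPM. All αGlu libraries lay above all Ctr libraries, which was so for 14.2% of all genes tested. αGlu 1 was 1.43 times the Ctr mean of 8.48 ± 1.06 CPM (SD, n = 3), and αGlu 2 and αGlu 3 were 4.55 and 4.67 times it. The log2 fold change was 1.83 ± 0.45 (SE, edgeR quasi-likelihood adjusted p 0.156). Leaving out αGlu 1 gave 2.20 ± 0.11 (adjusted p 5.54e-05). DESeq2 gave an adjusted p of 0.00258 on all 6 libraries. Usp18, which interferons induce, was lower in Ctr 1 (18.6 CPM) than in every other library, where it was at 83.1 CPM or more. Ctr 1 was also the lowest of the Ctr libraries for Socs1. Without Ctr 1 the log2 fold change of Socs1 was 1.74, and any part of the Usp18 pattern in the Socs1 difference was not tested.

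Cish (ENSMUSG00000032578, GRCm38 chr9:107296026-107302784, plus strand), a classical target of STAT5, had its libraries on both sides of Ctr. It was at 15.4, 18.4 and 13.5 CPM in Ctr. In αGlu 2 and αGlu 3 it reached 51.6 and 49.9 CPM, or 3.28 and 3.16 times the Ctr mean. In αGlu 1 it was at 8.83 CPM, 0.560 times the Ctr mean and below every Ctr library. The groups therefore overlapped, and the log2 fold change of 1.23 ± 0.62 (SE) had an edgeR quasi-likelihood adjusted p of 0.260. Without αGlu 1 it was 1.68 ± 0.13 at an adjusted p of 0.000238. The antisense gene Gm17041, whose exons overlap those of Cish, had 0 reads in every library. A count of 0 allows up to 3 reads, or 0.1675 CPM on total counts in the shallowest one.

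Socs2 (ENSMUSG00000020027, GRCm38 chr10:95385362-95417180, minus strand), which restrains growth hormone signalling, had the same order as Cish in αGlu. Ctr 1, 2 and 3 were at 7.22, 5.18 and 3.99 CPM, αGlu 1 at 1.78 CPM, and αGlu 2 and αGlu 3 at 12.1 and 16.2 CPM. αGlu 1 was at 0.325 times the Ctr mean of 5.47 ± 1.63 CPM (SD, n = 3), on 31 reads, and the other αGlu libraries were at 2.21 and 2.96 times it. The log2 fold change was 0.88 ± 0.72 (SE, edgeR quasi-likelihood adjusted p 0.448). Leaving out αGlu 1 gave 1.36 ± 0.25 (adjusted p 0.00719). The pattern that Cish and Socs2 shared, with αGlu 1 lowest of the 6 libraries and αGlu 2 and αGlu 3 highest, was found in 719 genes, or 6.03% of those tested, and was chosen after their values were seen. Both αGlu 2 and αGlu 3 lay above the other 4 libraries for 5 members (Cish, Socs1, Socs2, Socs3 and Socs4), against 29.7% of all genes, and below them for 1 member (Socs6), against 28.4%. This comparison, too, was chosen after the values were seen.

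**Figure D2:**
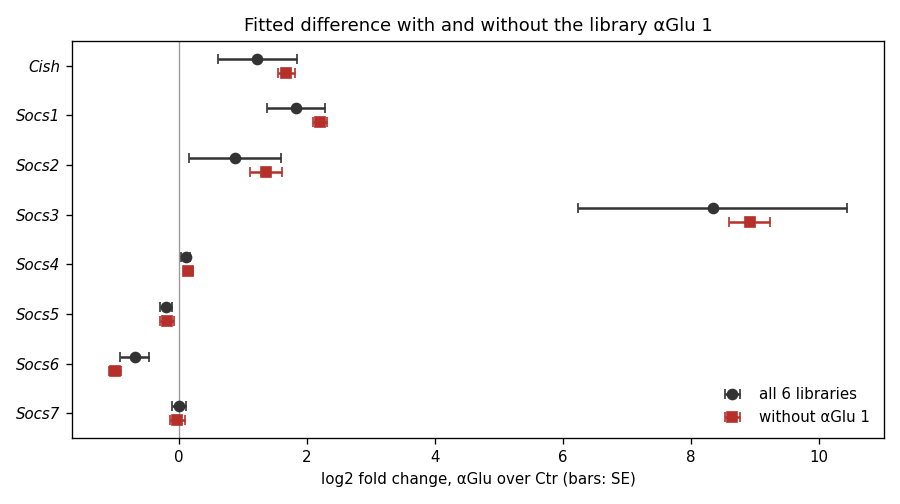
Log2 fold change of αGlu over Ctr (horizontal axis) of each member from the edgeR fit of all 6 libraries (black circles) and of 5 libraries without αGlu 1 (red squares), with standard errors as bars. The error of Socs3 falls from 2.10 to 0.32 and that of Cish from 0.62 to 0.13 without αGlu 1, while Socs4, Socs5 and Socs7 stay near 0 in both fits.

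Socs4 to Socs7 are the members with long N-terminal regions. Socs6 (ENSMUSG00000056153), which has been linked to insulin and Kit receptor signalling, was at 136, 121 and 123 CPM in Ctr, and αGlu 1, 2 and 3 held 109, 63.7 and 63.4 CPM. All αGlu libraries lay below all Ctr libraries, as for 15.9% of all genes. Its log2 fold change was -0.69 ± 0.23 (SE, edgeR quasi-likelihood adjusted p 0.170). Without αGlu 1 it was -1.0 ± 0.09 at an adjusted p of 0.000367, a value that only just passed the fold limit. DESeq2 gave an adjusted p of 0.0707 on all 6 libraries at -0.69, short of that limit. Socs1 and Socs6 were thus the 2 members without overlap between groups, against 30.2% of all genes, and without αGlu 1 there were 6 such members, against 65.8%. Of these, 5 were higher in αGlu (33.6% of all genes) and 1 was lower (32.2%).

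Socs4, Socs5 and Socs7 were not called in any fit, and their groups overlapped over the 6 libraries. Socs4 (ENSMUSG00000048379, GRCm38 chr14:47276931-47296102), a SOCS box protein linked to the epidermal growth factor receptor, had Ctr levels of 40.8 to 44.8 CPM and αGlu levels of 44.1 to 48.5 CPM, a log2 fold change of 0.11 ± 0.07 (SE). Socs5 (ENSMUSG00000037104, GRCm38 chr17:87107679-87137839), known to bind the IL-4 receptor in T cells, ranged over 31.3 to 35.3 CPM among Ctr and 26.3 to 31.7 CPM among αGlu libraries, with -0.20 ± 0.10. Socs7 (ENSMUSG00000038485, GRCm38 chr11:97362551-97398542), linked to insulin receptor substrates, ranged over 19.95 to 24.9 CPM and 21.2 to 24.1 CPM, with 0.0035 ± 0.11. Their adjusted p (edgeR, quasi-likelihood) was 0.355, 0.263 and 0.986, in that order, and leaving out αGlu 1 made it 0.158, 0.234 and 0.930. The sign for Socs7 was not stable, since it was negative with relative log expression factors, with DESeq2 and without any one of Ctr 3, αGlu 1 or αGlu 2.

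Since levels of different genes can be compared only per length, transcript levels per exon length (TPM) as deposited were used to rank the family. In Ctr the order was Socs6 (33.7 ± 2.73 TPM), Socs4 (18.9 ± 0.620), Socs5 (15.4 ± 1.36), Socs7 (9.34 ± 1.16), Socs1 (8.78 ± 0.959), Cish (7.40 ± 1.13), Socs2 (1.73 ± 0.549) and Socs3 (0.466 ± 0.340) (SD, n = 3). The ranges of Socs7 and Socs1 overlapped, as did those of Socs1 and Cish, and all other neighbours in this order were apart. In αGlu 1 the order was nearly the same, with Socs6 at 29.8 TPM on top and Socs3 at 0.554 TPM at the bottom, and with Socs1 (12.97 TPM) above Socs7 (9.83 TPM), as in Ctr 3.

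In αGlu 2 and αGlu 3 the order differed from that in Ctr, and it was identical in both. Socs3 came first at 245 TPM in each, followed by Socs1 at 42.5 and 44.7 TPM and Cish at 25.8 and 25.5 TPM. Socs4 and Socs6 came next, and Socs2 was last at 4.05 and 5.58 TPM. The summed level of the 8 genes was 100.6, 94.7 and 91.9 TPM in Ctr 1, 2 and 3, 91.3 TPM in αGlu 1, and 381 and 388 TPM in αGlu 2 and αGlu 3. Socs3 made up 0.157% to 0.817% of this sum in Ctr, 0.607% in αGlu 1, and 64.3% and 63.2% in αGlu 2 and αGlu 3. Without Socs3 the sum still stood at 136 and 143 TPM in these libraries, compared with 90.7 to 99.8 TPM in the other 4. Socs6, which held 33.6% to 36.6% of the sum in Ctr and 32.7% in αGlu 1, held 4.72% and 4.73% in αGlu 2 and αGlu 3. The ratio of Socs6 to Socs1 in TPM lay between 3.42 and 4.79 in Ctr and was 2.301, 0.423 and 0.411 in αGlu 1, 2 and 3. These are bulk measurements, in which fewer cells expressing a gene and less RNA per cell cannot be told apart.

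**Figure D3:**
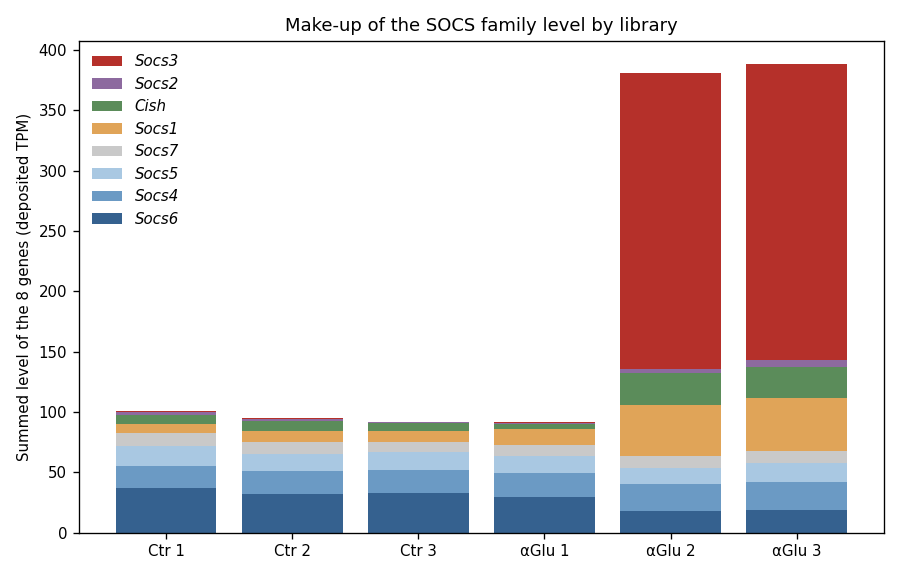
Summed level of the 8 genes in deposited TPM (vertical axis, from 0) for each library, with each gene as a coloured segment. The sum lies between 91.3 and 100.6 TPM in the 3 Ctr libraries and αGlu 1 and reaches 381 and 388 TPM in αGlu 2 and αGlu 3, where Socs3 takes most of the bar.

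The promoter window of RefSeq is printed for Cish, Socs1 and Socs3, the STAT-induced members for which there was one. The RefSeq table (GRCm38.p6) held 250 bases before and 50 after the start for 4 of the 8 members, the fourth being Socs4. The motifs searched on both strands were TTCNNNGAA, the palindrome bound by most STAT dimers, the wider form preferred by STAT6, with TTC and GAA 4 bases apart, and a core of interferon-responsive elements, with GAAA and GAAA 2 bases apart. Motif matches are in capitals. The windows of Cish and Socs3 lie wholly inside the gene spans that GENCODE gives, and for Socs3 the first 20 bases after the RefSeq start were in no GENCODE transcript, so that window is not shown to be the promoter in use.
Cish RefSeq window, chr9:107296409-107296708, plus strand: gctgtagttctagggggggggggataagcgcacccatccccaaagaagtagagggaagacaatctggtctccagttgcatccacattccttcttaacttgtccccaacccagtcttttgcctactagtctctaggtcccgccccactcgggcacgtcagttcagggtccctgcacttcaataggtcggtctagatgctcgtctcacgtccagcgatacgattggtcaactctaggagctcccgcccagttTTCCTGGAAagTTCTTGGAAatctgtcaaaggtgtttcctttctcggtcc
Socs1 RefSeq window, chr16:10785487-10785786, minus strand: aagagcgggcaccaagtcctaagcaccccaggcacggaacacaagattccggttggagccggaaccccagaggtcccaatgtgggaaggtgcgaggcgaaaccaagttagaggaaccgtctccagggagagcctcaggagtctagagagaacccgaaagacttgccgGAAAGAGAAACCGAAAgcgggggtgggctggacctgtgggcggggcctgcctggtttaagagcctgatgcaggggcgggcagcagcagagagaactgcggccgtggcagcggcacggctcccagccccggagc
Socs3 RefSeq window, chr11:117969317-117969616, minus strand: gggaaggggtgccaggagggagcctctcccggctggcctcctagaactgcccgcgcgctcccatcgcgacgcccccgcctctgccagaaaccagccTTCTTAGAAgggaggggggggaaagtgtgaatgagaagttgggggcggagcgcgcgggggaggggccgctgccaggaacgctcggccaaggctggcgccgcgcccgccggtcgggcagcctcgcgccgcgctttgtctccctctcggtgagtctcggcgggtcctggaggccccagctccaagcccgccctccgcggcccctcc
The Cish window held 2 copies of TTCNNNGAA, at bases 1 to 9 and 12 to 20 after the RefSeq start, which lies downstream of the first base of the gene in GENCODE. At least 1 copy was found in 8.3% of 32851 promoters of this length and at least 2 copies in 0.457%. Socs3 held 1 copy, 154 to 146 bases before its RefSeq start and inside the GENCODE span of the gene. Socs1 held 2 copies of the spaced GAAA pair that overlap by 4 bases, spanning 83 to 68 bases before the start. At least 1 copy of this motif was found in 3.44% of promoters and at least 2 copies in 0.225%. The wider STAT form, found in 6.95% of promoters, had no match in the 4 windows, and Socs4 had no match of any of the motifs. A match is a run of letters and not a measured binding site.

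The genes most like the STAT-induced members were sought by the Pearson r of log2 CPM over the 6 libraries, among 8413 genes of higher expression. They are a description, since αGlu 2 and αGlu 3 set most of each r. Closest to Socs3 were Trps1, Map4k4 and the interferon receptor chain Ifnar1 (r of 0.999, 0.999 and 0.998). Ifnar1 was at 95.3, 85.9 and 77.3 CPM in Ctr, the same order among Ctr libraries as Socs3, at 89.1 CPM in αGlu 1, and at 203 and 189 CPM in αGlu 2 and αGlu 3. Among those closest to Socs1 were Neat1 and Mrpl39 (r of 0.9995 and 0.9989), and 90 genes had an r above 0.99 with Socs1. Closest to Cish were Fosl2, an AP-1 subunit, Egln1 and Emb (r of 0.996, 0.995 and 0.995). Fosl2 was at 50.7 to 69.6 CPM in Ctr, 36.5 CPM in αGlu 1, and 167 and 147 CPM in αGlu 2 and αGlu 3. Closest to Socs2 were Arntl, Ndufs5 and Erh (r of 0.999, 0.997 and 0.991), and these were the only genes with an r above 0.99.

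The rest of the pathway was described with 7 lists. In edgeR's quasi-likelihood test on all 6 libraries 0 members of any list were called, as for all genes. The median log2 fold change over all genes tested was 0.02, and over the SOCS family and Cish it was 0.50.

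The ligase partners of the family and other proteins with a SOCS box made up the first lists. Among 8 cullin-RING partners the median was 0.20, with a range of 0.05 to 0.57, and none was called in any of the 3 analyses (all 6 libraries, without αGlu 1, DESeq2). Rbx1, a RING subunit of cullin ligases, averaged 53.0 ± 3.61 CPM over Ctr and 66.5 ± 1.12 CPM over αGlu libraries (SD, n = 3), without overlap. Ube2f, which attaches NEDD8 to cullin 5, was at 46.5 to 50.5 CPM in Ctr, and αGlu 1, 2 and 3 held 48.8, 84.5 and 84.2 CPM. Of 26 other SOCS box proteins 14 were tested, with a median of -0.23, and 5 of them were lower in αGlu without overlap against 0 higher, beside 15.9% and 14.2% of all genes. Spsb1, which restrains inducible nitric oxide synthase, was the only one called higher without αGlu 1. It was at 0.772, 0.418 and 0.696 CPM in Ctr, 0.516 CPM in αGlu 1, and 12.4 and 11.5 CPM in αGlu 2 and αGlu 3, and was called by DESeq2 (log2 fold change 3.69, adjusted p 0.00342) and without αGlu 1 (4.24, adjusted p 6.95e-05). Spsb2 stood at 29.7 ± 1.99 and 23.9 ± 3.13 CPM and Asb8 at 33.6 ± 3.92 and 28.0 ± 1.72 CPM in Ctr and αGlu (SD, n = 3). Without αGlu 1, Spsb4 and Asb4 were called lower (log2 fold changes of -1.28 and -3.63), so that 1 of the 14 was called higher and 2 lower, beside 8.05% and 10.5% of all genes.

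Other negative regulators of JAK-STAT signalling, which act as phosphatases, adaptors or SUMO and ubiquitin ligases, had a median of -0.06 over 13 tested genes. The phosphatase Ptpn2 spanned 24.3 to 31.5 CPM among Ctr and 33.6 to 44.5 CPM among αGlu libraries, a log2 fold change of 0.52 ± 0.15 (SE, edgeR quasi-likelihood adjusted p 0.159). Pias4 and the adaptor Sh2b3 had log2 fold changes of -0.28 ± 0.13 and -0.33 ± 0.15 (SE), with overlap between groups. On this list 3 genes were higher in αGlu without overlap and 0 lower, beside 14.2% and 15.9% of all genes. Without αGlu 1 the only call on it was the ubiquitin ligase Cblb, at -1.31. In that fit 10.5% of all genes were called lower and 8.05% higher.

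Transcripts of the proteins on which SOCS members act differed unevenly. Among the JAK kinases, Jak2 was at 142, 213 and 216 CPM in Ctr, 207 CPM in αGlu 1, and 762 and 840 CPM in αGlu 2 and αGlu 3. Jak3 spanned 15.9 to 16.6 CPM in Ctr, and αGlu 1, 2 and 3 held 19.7, 42.8 and 43.7 CPM, without overlap. Both were called higher by DESeq2 (adjusted p 0.0173 and 0.0145) and without αGlu 1 (log2 fold changes of 2.07 and 1.41). Of the genes with an adjusted p, DESeq2 called 4.21% higher, and the fit without αGlu 1 called 8.05% higher. Jak1 and Tyk2 had log2 fold changes of -0.04 and 0.06. Irs2, an insulin receptor substrate, was at 15.6 ± 4.58 and 12.3 ± 2.94 CPM (SD, n = 3), and Irs1 was left out of the test with at most 5 reads in a library.

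Of the STAT factors that switch the family on, 6 of 7 were tested. Stat3, which acts on the Socs3 gene, was at 112, 132 and 121 CPM in Ctr, and αGlu 1, 2 and 3 held 147, 233 and 233 CPM without overlap. Its log2 fold change was 0.75 ± 0.20 (SE, edgeR quasi-likelihood adjusted p 0.157). Stat2 had 0.41 ± 0.42. Stat5a, Stat5b and Stat6, the factors of IL-4 and growth factor signalling, had log2 fold changes of 0.05 ± 0.11, 0.02 ± 0.08 and 0.02 ± 0.09 (SE).

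Receptor chains gave 6 genes higher and 1 lower in αGlu without overlap, among 21 tested, beside 14.2% and 15.9% of all genes, with a median log2 fold change of 0.31. Il4ra, the IL-4 receptor chain on which Socs1 acts, was at 62.7, 61.1 and 66.3 CPM in Ctr, and αGlu 1, 2 and 3 held 78.2, 509.8 and 643 CPM. Its log2 fold change was 2.7 ± 0.73 (SE, edgeR quasi-likelihood adjusted p 0.157). Leaving out αGlu 1 gave 3.18 (adjusted p 2.61e-05). Csf3r and Ifnar2 had 1.72 ± 0.46 and 0.95 ± 0.28 (SE), both without overlap. Csf3r was the marker that carried the neutrophil list, and its part in other differences was not tested. Without αGlu 1, 6 receptor chains were called higher and 3 lower, beside 8.05% and 10.5% of all genes. The latter were Il6st, which encodes gp130, the chain that Socs3 binds (-1.80, adjusted p 0.00166), Lifr (-1.32) and Il12rb2 (-2.36). Il6st was at 897, 798 and 545 CPM in Ctr, 642 CPM in αGlu 1, and 235 and 196 CPM in αGlu 2 and αGlu 3.

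Of 16 cytokines that could act on these receptors, 3 passed the low-count filter and were tested. A gene with reads in αGlu 2 and αGlu 3 alone could fail that filter, so an untested cytokine need not be scarce in every library. Osm was at 2.59 to 4.18 CPM in Ctr, and αGlu 1, 2 and 3 held 4.13, 12.4 and 10.4 CPM. Il27 spanned 0.545 to 1.30 CPM among Ctr and 1.55 to 2.64 CPM among αGlu libraries. Both were called higher by DESeq2 (adjusted p 0.0265 and 0.0540), as were 4.21% of the genes it gave an adjusted p. Il10 was at 7.0 CPM in αGlu 1, above the other 5 libraries, and at 0.944 and 1.03 CPM in αGlu 2 and αGlu 3. Il4 and Il13, which were added as proteins, had at most 1 read in a library. Of the untested cytokines, Il12a had 0 to 4 reads in Ctr and αGlu 1 and 535 and 258 reads in αGlu 2 and αGlu 3, and Il6 had 0 to 6 reads and 42 and 30 reads in the same libraries.

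**Figure D4:**
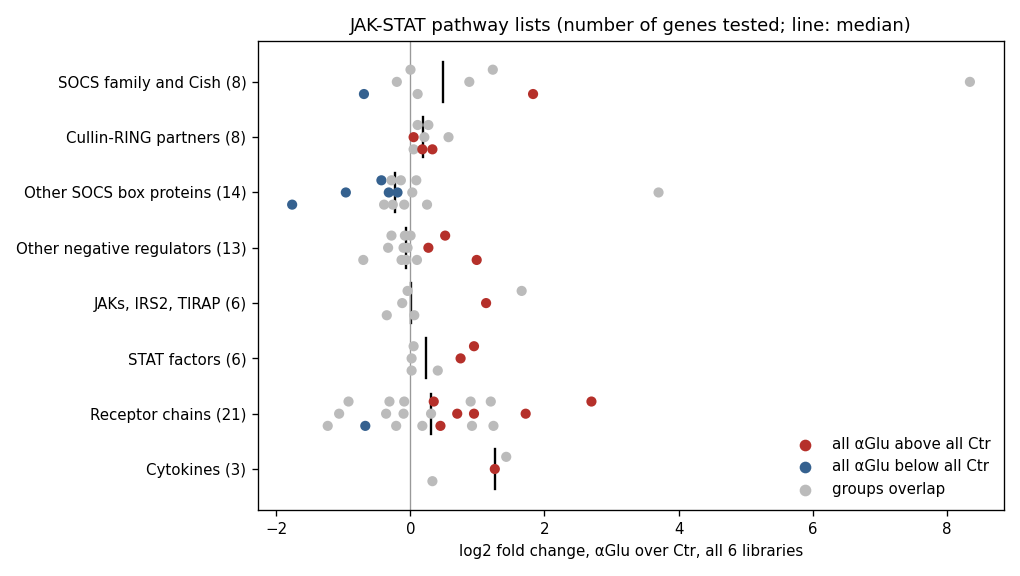
Log2 fold change of αGlu over Ctr (horizontal axis) for each gene tested of the SOCS family and of 7 JAK-STAT lists, with the number of genes tested in brackets and a line at each median. Red and blue points are genes whose αGlu libraries all lie above or below all Ctr libraries, and the grey point at 8.34 is Socs3, whose groups overlap through αGlu 1.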

How the data were processed

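Stranded mRNA libraries were processed by the authors with the QIAGEN RNA-seq Analysis Portal, on genome build GRCm38 according to the submitters' processing notes, with aligner and annotation not given in the sources used here. The deposited counts are whole reads over exons, without normalization. The deposited RPKM and TPM values scale these reads by exon length and depth, and the authors' CPM column is a signal on effective library sizes that was not used here. A blank row was left out.

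Counts were tested with edgeR 4.0.16 in R 4.3.3 (filterByExpr, minimum count 10, minimum total 15, TMM factors, quasi-likelihood, group as the only term, two-sided, Benjamini-Hochberg adjustment over all genes tested). Calls required both an adjusted p below 0.1 and a log2 fold change beyond 1 in size. SE is the absolute log2 fold change over the square root of F. The CPM printed use TMM-adjusted library sizes, and log2 CPM has a prior count of 2. The models were run on counts simulated gene by gene with known changes. Those counts held no library that departs across many genes as αGlu 1 does, so that run does not cover this feature. Gene positions are from GENCODE release M21. Alternatives were DESeq2 1.42.0, limma-voom (limma 3.58.1), other factors, filters and thresholds, a replicate block and each library left out in turn. No 2 libraries of a group agreed within sampling noise (chi-square per gene at least 19.97). The labels do not say that libraries came from separate cultures, and the study calls them independent experiments, so p-values measure the spread between these libraries.

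The members, lists and naming rule were chosen with earlier results of these data known. Named were the 8 members, the 3 genes of each pathway list with the smallest unadjusted p, the 3 genes most like each of Cish, Socs1, Socs2 and Socs3 (mean log2 CPM of at least 3, gene models left out), and marker lists. Other genes given with values were chosen after these were seen, and 2 genes that the rule names are not reported here.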

Additional observations from a re-analysis of the deposited data

How the results depend on the processing

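The number of members called was 0 with relative log expression factors, library size alone, both other low-count filters, limma-voom, the replicate block, no fold limit and an adjusted p under 0.05. It was 2 with DESeq2, and from 0 to 5 when 1 library was left out, with 5 only without αGlu 1. Over the whole table the count was 1117 with DESeq2, 17 with the replicate block, and from 0 to 2290 when 1 library was left out, with 2290 only without αGlu 1. The cause was not tested. Members without overlap between groups numbered 2 to 6 when 1 library was left out, with 6 without αGlu 1 and 3 without Ctr 1, Ctr 3 or αGlu 3. Over all genes tested, the share without overlap was 30.2% with all libraries and 65.8% without αGlu 1. It was not computed for the other libraries left out, so those counts are not read as a result about the members.

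Fold changes of the other 7 members kept their sign under each alternative that gave a value, and Socs3 gave none where a CPM above 1 in 3 libraries was required. Socs7 changed sign to -0.0014 with relative log expression factors and to -0.0042 with DESeq2, and ranged from -0.09 to 0.08 when 1 library was left out. Shares of the summed family level are the same with RPKM by construction. Without αGlu 1, the mean αGlu share of Socs3 rose from 42.7% to 63.7%, and that of Socs6 fell from 14.1% to 4.72%. Such shifts cannot reach 1 SD when 1 of 3 libraries is left out, so the SD is no yardstick for them. By Spearman's rho, 1 of the 3 genes most like Socs1 and 1 of those most like Socs3 stayed among the closest.

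After subtraction of group means, libraries sharing a number had correlations of 0.076, 0.065 and 0.154, so the numbers were not taken to pair the libraries, although every library correlated best with its own number. The replicate block gave Socs3 a log2 fold change of 7.40 (edgeR quasi-likelihood adjusted p 0.206) and Socs1 one of 1.67 (adjusted p 0.157). With 3 to 17 reads in 4 libraries, differences of Socs3 among Ctr libraries and αGlu 1 are limited by depth.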
